A study of Homo sapiens with 6 samples.

Results

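The 2 libraries of biological replicate 1, one from WT K562 cells and one from K562 cells labelled ACK KO, stood apart from the 4 libraries of replicates 2 and 3, and the results below describe what set those 2 libraries, of 6 in all, apart. K562 is an established human line of chronic myeloid leukaemia, driven by the BCR::ABL1 kinase, with erythroid and megakaryocytic features. ACK, encoded by TNK2, is a tyrosine kinase that binds the GTPase Cdc42, and the series asked how its loss alters transcription that depends on STAT5. The culture medium of both genotypes was RPMI supplemented with glutamine and 10% fetal bovine serum, and polyadenylated RNA was sequenced from 500 ng of total RNA with an integrity number of 10 in each of the 3 WT and 3 KO-labelled libraries. The labels name no treatment or time, 1 line per genotype and nothing that explains the replicate number, so replicates of one line are compared here. For a few genes the levels of WT and KO-labelled cells are set side by side, but no difference in level between the genotypes was tested. The replicate 1 libraries were chosen by these same expression values, which separated them. The second principal component, with 26.8% of the variance, scored 75.6 and 55.5 in WT and KO-labelled replicate 1 and between -42.1 and -23.3 in the other 4 libraries. The split is therefore described without a test, and tests are given only for contrasts it did not use.

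TNK2 itself (chromosome 3, 195863364 to 195911945, minus strand; GRCh38 with GENCODE 29 positions, as for all genes below) had normalised values of 829.7, 613 and 642 in WT replicates 1, 2 and 3 against 741, 506 and 598 in the KO-labelled libraries, an order of replicates kept throughout. The message was present in all 6 libraries and highest in replicate 1 of each genotype, so its level does not check the genotype labels. Markers of the line were present in every library. GATA1, the erythroid master regulator, had values of 9877, 8842 and 8921 in WT against 6980.5, 7029.8 and 6863 in KO-labelled cells, and the fusion partner genes BCR and ABL1 had replicate 1 differences of 0.01 ± 0.07 and 0.07 ± 0.08 on the log2 scale. The sums of normalised values were 46.69 M, 53.3 M and 50.33 M for WT against 43.48 M, 49.45 M and 47.32 M for KO-labelled libraries, lowest in replicate 1 of each genotype. Genes listed at 0 numbered 206, 368 and 354 in WT and 178, 388 and 272 in the KO-labelled libraries, the fewest in replicate 1 of each genotype. Read depth is unknown, and the part of the sums and of the zeros in the differences below was not tested.

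Among the gene lists, the integrated stress response had the highest median replicate 1 difference (1.81 on the log2 scale). Globins (-1.24) and ribosome biogenesis genes (-1.22) had the lowest. What links these lists was not tested. In the integrated stress response, kinases that sense amino acid shortage, unfolded protein, haem shortage or viral RNA phosphorylate the initiation factor eIF2, general translation drops and the mRNA of the transcription factor ATF4 is translated more. ATF4 and its partners of the C/EBP family then switch on genes for amino acid synthesis and uptake through composite promoter elements. Ribosome biogenesis rises with growth: RNA polymerase I makes ribosomal RNA in the nucleolus, and a large set of processing factors, many of them targets of MYC acting through E-box elements, trims it and assembles it with ribosomal proteins.

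Promoter sequence is shown for members of the stress response and ribosome biogenesis sets that held such an element before the RefSeq start site. These 2 sets lay near opposite ends of the replicate 1 difference. The windows come from the RefSeq promoter table for GRCh38.p14, which covers 250 bases before to 50 bases after the annotated start. They are written 5′ to 3′ along the gene, with the matched letters in capitals and up to 20 bases on each side, cut at the start site. The RefSeq start can differ from the GENCODE bounds of a gene. By the GENCODE positions given below, the windows of CHAC1, ASNS and RRP9 lie inside the gene. The element of ATF4 with C/EBP was searched as TGATGNAAN on both strands. It was found in the whole promoter of 3 of the 17 integrated stress response genes (17.6%), against 1.73% of the 11146 promoters matched to genes tested, 3.67% of all 27305 promoters of the table, 3.44% of the 1047 promoters matched to genes higher in replicate 1 and 1.1% of the 456 matched to genes lower in it. The 3 windows lie at chr1:212565196-212565244 (ATF3, plus strand), chr7:97872448-97872496 (ASNS, minus strand) and chr15:40953241-40953289 (CHAC1, plus strand, the element in reverse).

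ATF3: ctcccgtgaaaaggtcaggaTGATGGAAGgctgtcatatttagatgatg
ASNS: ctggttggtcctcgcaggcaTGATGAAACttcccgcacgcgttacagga
CHAC1: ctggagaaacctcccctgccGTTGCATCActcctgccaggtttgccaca

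The core ACGTG, shared by the MYC E-box and the hypoxia element and searched on both strands, was found in 14 of the 25 ribosome biogenesis genes with a promoter in the table (56%), against 26.6% of those of genes tested, 21.6% of all promoters, 20.8% of those of genes higher and 34.4% of those of genes lower in replicate 1. Promoters from part of the genome were left out of the windows, so the members shown need not be all that qualify. Windows are shown for 6 members lower by the size rule given below whose match lies before the start. They are at chr12:101280075-101280104 (UTP20, plus), chr3:51941905-51941929 (RRP9, minus), chr6:43516958-43517002 (POLR1C, plus), chr22:30592082-30592126 (PES1, minus), chr2:86105898-86105942 (POLR1A, minus) and chr16:69132613-69132648 (UTP4, plus).

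UTP20: gcgccgttcttttttccgtcCACGTGaccc
RRP9: agctgggagggttcagctgcCACGT
POLR1C: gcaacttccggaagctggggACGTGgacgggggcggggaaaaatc
PES1: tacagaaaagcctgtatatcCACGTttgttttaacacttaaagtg
POLR1A: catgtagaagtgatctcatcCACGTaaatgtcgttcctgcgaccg
UTP4: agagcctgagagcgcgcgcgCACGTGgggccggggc

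PES1, a factor of large subunit maturation, and UTP4, of the small subunit processome, had replicate 1 differences of -1.24 ± 0.13 and -1.09 ± 0.13, with UTP4 under the rule at -0.88, -0.99 and -0.97 without WT replicate 1, WT replicate 2 and replicate 2 of both, and the values of the other members are given with their list. In UTP20 and UTP4 the match extended to the full palindrome CACGTG within the window. These matches are letters in a window and not sites shown to be bound. ACGTG was also in 4 of 8 promoters of serine, glycine and one-carbon enzymes (50%, list median 0.32). It was in 5 of 13 of amino acid transporters (38.5%, median 0.23) and 3 of 26 of proteasome subunits (11.5%, median -0.86). TGATGNAAN was in 3 of 13 transporter promoters (23.1%), 1 of 8 of those enzymes (12.5%) and 0 of 26 of the proteasome. Whether a motif goes with the direction of the difference was not tested. The GATA motif, GATAA on both strands, was in 23.2% of all promoters, 14.5% of those of genes tested, 18.6% of those of genes higher and 12.3% of those of genes lower in replicate 1, and the STAT motif TTCNNNGAA, whose reverse complement is itself, was in 7.88%, 6.15%, 6.49% and 6.8%.

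Of 16658 genes with a normalised value of 10 or more in at least 3 libraries, 1765 (10.6%) were higher and 696 (4.18%) were lower in replicate 1, together 2461 (14.8%). The size rule behind these counts asks for a fitted log2(value + 1) difference of at least 1, which is 2-fold, and for replicate 1 to lie beyond both other replicates in each genotype. The difference is replicate 1 minus replicates 2 and 3 with genotype as covariate, and errors given after ± are its standard error over the 6 libraries. The fitted differences just inside and outside the rule were 1.0004 and 0.99999 on the upper side and -1.0012 and -0.99967 on the lower side. At any size, replicate 1 was above both others in each genotype for 5725 genes (34.4%) and below both for 5546 (33.3%). The median of all genes was 0.03, and 0.18 with equal totals. Counts of list members below are to be read against 10.6% higher and 4.18% lower. The share of higher genes among those counted was 71.7% with the deposited values, 83.8% with totals made equal, which moved the median of all genes to 0.18, and 52% after quantile normalisation, so the balance of the directions rests on the scaling.

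The difference was similar in WT and KO-labelled cells. Replicate 1 was chosen because its libraries stood apart together in both genotypes. This likeness was therefore partly built into the choice and is no independent evidence. Across genes, which are not independent replicates, the WT difference had a Pearson correlation of 0.70 and a Spearman correlation of 0.76 with the KO-labelled difference, and 80.7% of genes had the same sign. At least 2-fold differences numbered 2175 higher and 1136 lower in WT and 1836 higher and 613 lower in the KO-labelled cells, and 1121 and 392 genes were shared. The shared genes made up 51.5% and 34.5% of the WT sets and 61.1% and 63.9% of the KO-labelled sets. Only 39 genes were at least 2-fold apart in opposite directions. Of the 2461 counted genes, 1677 (68.1%) had the larger difference in WT.

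**Figure D1:**
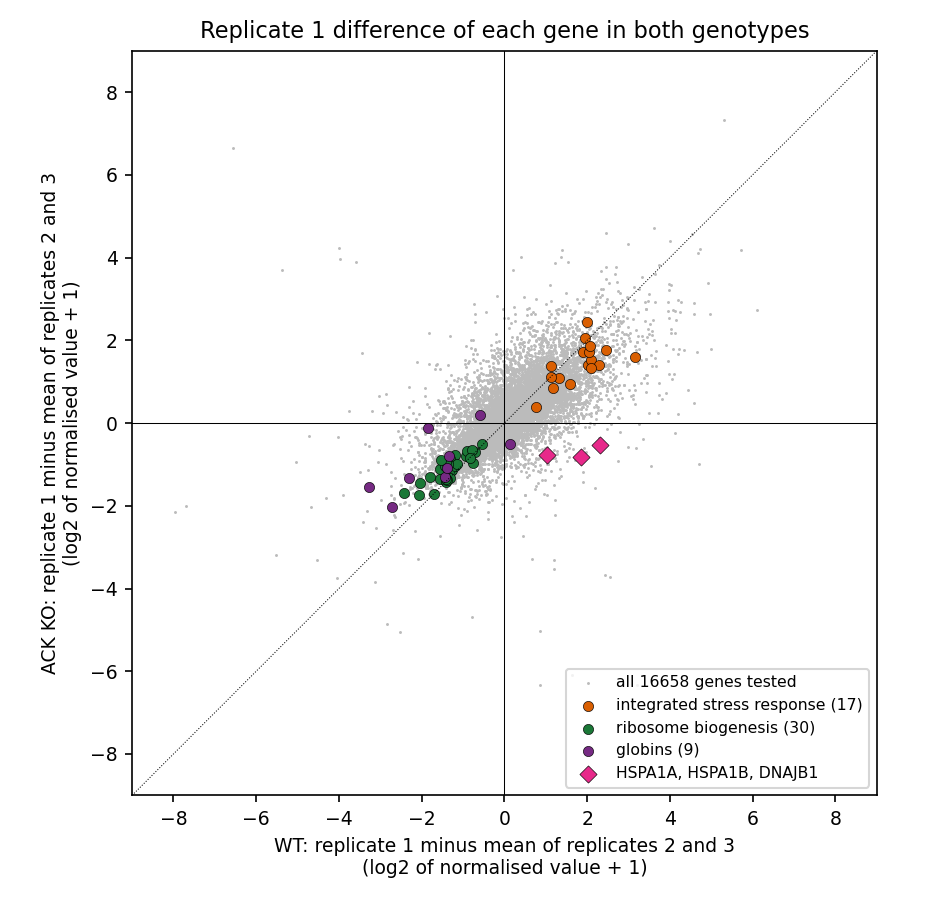
Log2(value + 1) difference of replicate 1 from the mean of replicates 2 and 3 in WT (horizontal axis) and in the KO-labelled libraries (vertical axis) for 16658 genes, 1 point a gene, with 3 gene lists and 3 heat shock genes coloured. The 17 integrated stress response genes lie above 0 and the 30 ribosome biogenesis genes below 0 on both axes, while HSPA1A, HSPA1B and DNAJB1 are above 0 in WT and below 0 in the KO-labelled libraries.

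Genes of the integrated stress response were higher in replicate 1 of both genotypes. Of 17 members tested 16 passed the size rule upwards, where 10.6% of all genes did, none was lower, and the remaining member was ATF4 itself. The median difference of the list was 1.81, with 1.99 in WT and 1.40 in the KO-labelled cells, against 0.03 over all genes. The list was drawn up with this difference known, so its count and median describe it and are no independent evidence. ATF5 (chromosome 19, 49928702 to 49933935, plus strand), a factor whose mRNA is translated under eIF2 phosphorylation like that of ATF4, had values of 15984, 2212 and 1462 in WT against 7021, 2556 and 2080 in KO-labelled cells. The WT replicate 1 value stood well above all others. Its difference was 2.38 ± 0.31, 5.2-fold, and it was 1.61 without WT replicate 1 but 3.15 without KO-labelled replicate 1. ASNS (chromosome 7, 97852118 to 97872542, minus strand), which encodes asparagine synthetase, had values of 18847, 3708 and 4019.8 in WT against 26935, 8639 and 11978 in KO-labelled cells, and its difference was 1.85 ± 0.19. Both replicate 1 libraries were above all 4 others, although the KO-labelled values of replicates 2 and 3 were themselves higher than those of WT. ATF3 (chromosome 1, 212565334 to 212620777, plus strand), a factor that feeds back on stress genes, had values of 912, 212 and 263 in WT against 1428, 288 and 411 in KO-labelled cells, a difference of 2.00 ± 0.18 that was nearly equal in WT (1.94) and KO-labelled cells (2.05). CHAC1 (chromosome 15, 40952962 to 40956519, plus strand), whose product degrades glutathione, had values of 340.2, 55.9 and 111 in WT against 493, 131 and 223 in KO-labelled cells. Replicate 1 exceeded the other libraries of its genotype, and CHAC1 together with ATF3 and ASNS carries the composite element shown above.

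TRIB3, a pseudokinase gene that restrains ATF4, had values of 7833, 1894 and 1935 in WT against 14842, 5435 and 5847 in KO-labelled cells, a difference of 1.71 ± 0.13. DDIT3, the gene of the stress factor CHOP, had values of 2454, 1192 and 1070.2 in WT against 4138, 1661 and 1532 in KO-labelled cells, and in this gene the difference was larger in the KO-labelled cells (1.38) than in WT (1.12). GDF15, a secreted stress cytokine gene (chromosome 19, 18374731 to 18389176, plus strand), had values of 9699.6, 2296 and 2400.2 in WT against 13406, 3604 and 4584 in KO-labelled cells, 3.69-fold higher in replicate 1. Both replicate 1 values of these 3 genes lay above every library of replicates 2 and 3. DDIT4, which encodes an inhibitor of mTORC1, differed by 1.81 ± 0.16, SESN2, a leucine sensor of the same pathway, by 1.20 ± 0.10, and PPP1R15A, the regulatory subunit of the phosphatase that reverses eIF2 phosphorylation, by 1.27 ± 0.14, or 0.93 and under the rule without WT replicate 1. The factors JDP2, CEBPB and CEBPG differed by 2.21 ± 0.25, 1.13 ± 0.09 and 1.01 ± 0.10, the secreted peptide gene ADM2 by 2.11 ± 0.23 and CTH, which makes cysteine from cystathionine, by 1.97 ± 0.12. CEBPG was under the rule, at 0.84 to 0.996, without any 1 of the WT libraries or replicate 3 of both. ATF4 had values of 17740, 10217 and 10566 in WT against 18342, 13736 and 14402 in KO-labelled cells. They were highest in replicate 1 of each genotype, but the difference of 0.58 ± 0.10 was under the 2-fold rule. Translation, which also controls ATF4, was not measured here. Leaving out any 1 library, or either of replicates 2 and 3, kept 14 to 16 of the 17 genes past the rule.

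**Figure D2:**
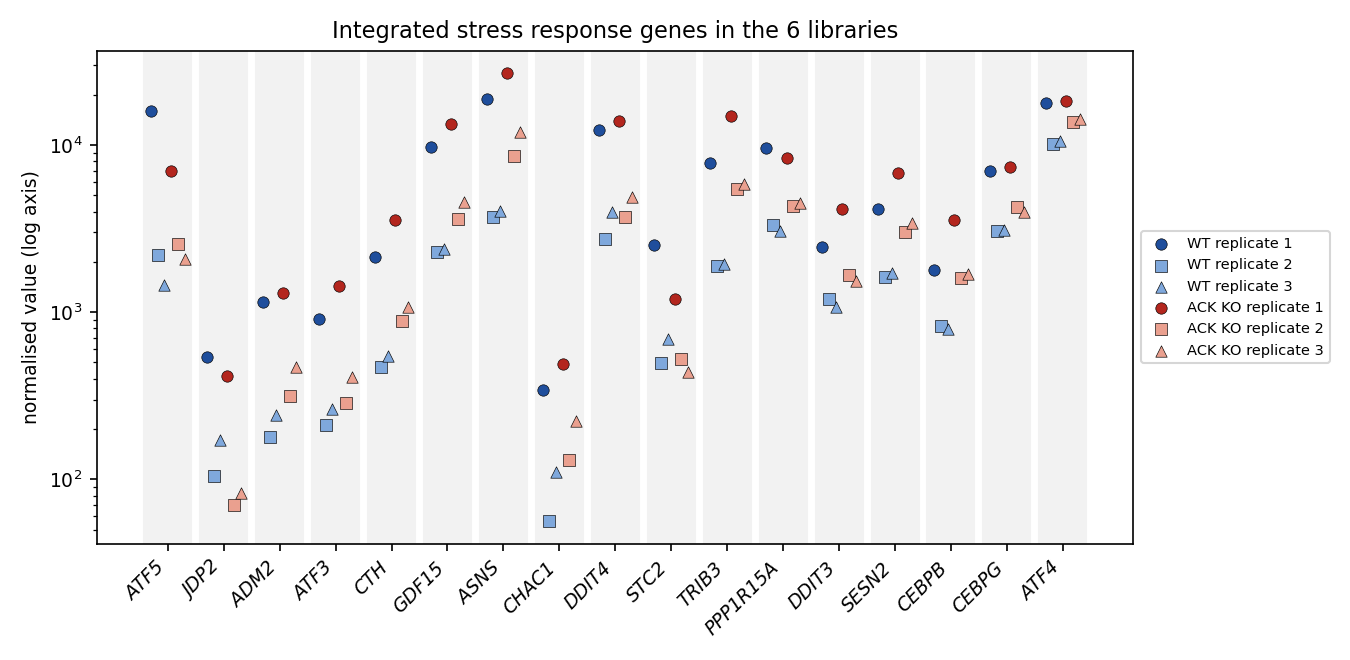
Normalised values (vertical log axis) of 17 integrated stress response genes in the 6 libraries, 1 point per library, ordered from the largest to the smallest replicate 1 difference. In each gene the replicate 1 point (circle) is above the replicate 2 (square) and replicate 3 (triangle) points of its genotype, by the largest margin in ATF5 of WT.

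Enzymes and carriers of the amino acids that ATF4 targets supply followed the same direction in part. Among 13 serine, glycine and one-carbon enzymes 3 were higher, none lower and 10 within the rule, with a median of 0.32. PHGDH (chromosome 1, 119648411 to 119744226, plus strand), the first enzyme of serine synthesis, had values of 14592, 2396 and 3016 in WT against 12019, 4045 and 5333 in KO-labelled cells, 3.75-fold higher in replicate 1. ALDH1L2, a mitochondrial folate enzyme gene, had values of 296, 52 and 5.17 in WT against 2852, 477 and 732 in KO-labelled cells. Its level was far lower in WT than in KO-labelled cells, and its difference of 3.15 ± 0.75 ranged from 2.27 without WT replicate 1 to 4.04 without KO-labelled replicate 1. MTHFD2, a mitochondrial folate enzyme gene, had a difference of 1.05 ± 0.15 that was 0.68 without WT replicate 1 and 0.99 without WT replicate 2, both under the rule. PSAT1, the next step of serine synthesis after PHGDH, differed by 0.74 ± 0.14, while ALDH18A1 and MTHFD1 had differences of -0.64 and -0.59. Of 14 amino acid transporters 3 were higher and 1 lower, with a median of 0.23. The cystine carrier gene SLC7A11 (chromosome 4, 138164097 to 138242349, minus strand) had values of 6314, 2384 and 2496 in WT against 8878, 3599.7 and 3628 in KO-labelled cells, a difference of 1.33 ± 0.08. The glycine carrier gene SLC6A9 had values of 1011, 252 and 259 in WT against 1228, 529 and 527 in KO-labelled cells, 3.03-fold higher. SLC1A4, a carrier of alanine and serine, had values of 2693, 463 and 433 in WT against 4351, 2075 and 2499 in KO-labelled cells, and its difference was 1.76 ± 0.30, 0.93 and under the rule without WT replicate 1 but 2.59 without KO-labelled replicate 1. The glutamine carrier gene SLC38A5 went the other way, with values of 3288, 10874 and 8464 in WT against 1561, 4686 and 3711 in KO-labelled cells, 2.79-fold lower in replicate 1.

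The 20 cytosolic aminoacyl-tRNA synthetases, which charge tRNAs, were split. AARS1, the alanine enzyme and a known ATF4 target, had values of 28156, 10437 and 12531 in WT against 30586, 13161 and 14138 in KO-labelled cells, a difference of 1.23 ± 0.09, and was the only 1 of them past the rule. WARS1, the tryptophan enzyme, had both replicate 1 values above the other 4 and a difference of 1.0 ± 0.12, just under the rule, while at the other end FARSA and VARS1 differed by -0.96 ± 0.12 and -0.96 ± 0.10. The list median of 0.21 covered 13 members above 0 and 7 below. With equal totals the median was 0.37 with 4 higher, and after quantile normalisation it was 0.42 with 4 higher. The unfolded protein response of the endoplasmic reticulum, a stress pathway that shares the eIF2 kinase PERK with the first list, had 3 of 20 members higher, beside 10.6% of all genes, none lower and a median of 0.06. HERPUD1 had values of 3174, 1125 and 1301 in WT against 2726, 1124 and 1275 in KO-labelled cells, EDEM1 values of 6336, 2464 and 2698 in WT against 5789, 2798 and 2926 in KO-labelled cells and SEL1L values of 7136, 2844 and 2814 in WT against 7058, 3489.8 and 3572 in KO-labelled cells, with differences of 1.29 ± 0.11, 1.16 ± 0.09 and 1.17 ± 0.09. SEL1L was just under the rule, at 0.999, without WT replicate 1. The chaperones of that compartment were within the rule, with differences of 0.10 ± 0.11 for HSPA5 and -0.20 ± 0.08 for HSP90B1, and 0.95 ± 0.17 for DNAJB9.

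Ribosome biogenesis genes were lower in replicate 1. All 30 members had differences below 0, and 22 of 30 passed the size rule downwards, where 4.18% of all genes did. The median was -1.22, with -1.38 in WT and -1.03 in KO-labelled cells. The list, like the others, was drawn up with earlier results known. UTP20 (chromosome 12, 101280109 to 101386616, plus strand), a component of the small subunit processome, had values of 2128, 13144 and 9983 in WT against 2971, 10914 and 8462 in KO-labelled cells, a difference of -2.06 ± 0.18. RRP9 (chromosome 3, 51933430 to 51941941, minus strand), a protein of the U3 small nucleolar particle, had values of 441, 2139 and 1536 in WT against 524, 1713 and 1197 in KO-labelled cells, 3.35-fold lower. NOP16 (chromosome 5, 176383938 to 176388975, minus strand), which acts in large subunit assembly, had values of 1198, 5620.2 and 4488 in WT against 857, 3290.3 and 2489 in KO-labelled cells, a difference of -1.90 ± 0.14. In these 3 genes both replicate 1 values were below every value of replicates 2 and 3, with no overlap. The RNA polymerase I subunit genes POLR1A, POLR1B and POLR1C differed by -1.17 ± 0.11, -1.21 ± 0.14 and -1.39 ± 0.11, and without WT replicate 1 POLR1A and POLR1B were under the rule at -0.94 and -0.89. POLR1G, a further subunit that was named among the 15 largest lower genes, had values of 730.4, 4228 and 3070 in WT against 774, 3648 and 2527 in KO-labelled cells, 4.39-fold lower in replicate 1. RRS1, an assembly factor, had values of 992, 3791 and 2754 in WT against 899.7, 3592 and 2457 in KO-labelled cells. NOP56, a core protein of the methylation guide particles, had values of 5814, 20185 and 14602 in WT against 9097, 26776 and 20419 in KO-labelled cells. NCL, which encodes the abundant nucleolar protein nucleolin, had values of 48447, 130360 and 104640 in WT against 45821, 112810 and 89232 in KO-labelled cells. Their differences were -1.71 ± 0.17, -1.46 ± 0.15 and -1.20 ± 0.13. NPM1, another abundant nucleolar gene, had values of 89707, 160080 and 136370 in WT against 44832, 78780 and 66989 in KO-labelled cells and differed by -0.71 ± 0.11, under the rule, as did FBL with -0.78 and DKC1 with -0.87. MYC, whose product targets many ribosome biogenesis genes, had values of 11786, 16249 and 14302 in WT against 9399, 14748 and 12885 in KO-labelled cells. It was lowest in replicate 1 of each genotype, but the difference of -0.46 ± 0.09 was under the rule. The part of MYC in the difference of the list was not tested. The count of lower members was 17 to 24 of 30 when 1 library or 1 replicate number was left out, 19 with equal totals and 17 after quantile normalisation.

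Replicates 2 and 3 also differed in these lists, a contrast that the choice of replicate 1 did not use. All 30 ribosome biogenesis genes had the higher fitted value in replicate 2, with a median log2 difference of 0.29, where 8793 of the 16658 genes did and the median of all genes was 0.02. The 77 cytosolic ribosomal protein genes all had the higher value in replicate 2 as well, with a median of 0.23, and so did all 31 proteasome subunit genes with a median of 0.15. For globins the number was 7 of 9, with a median of 0.38. These values are with the deposited scaling only. The sums of normalised values were also higher in replicate 2 than in replicate 3. They were 53.3 M against 50.33 M in WT and 49.45 M against 47.32 M in the KO-labelled libraries. The part of the sums in this contrast was not tested. Tested gene by gene, 0 genes (0%) differed between replicates 2 and 3 at an adjusted p of 0.05 (limma, Benjamini-Hochberg), the smallest adjusted p being 0.183, and 0 did without the intensity trend. An unadjusted p under 0.05 was reached by 1775 genes. By a 2-fold rule 104 genes (0.624%) were higher and 405 (2.43%) lower in replicate 2, together 509 (3.06%), against 14.8% for replicate 1. Here replicate 2 had to lie beyond replicate 3 alone in each genotype, and the difference is between single replicates. The shares of 3.06% and 14.8% therefore come from unlike rules. The limma fit of replicates 2 and 3 takes its error from all 6 libraries. When 1 library was left out, 4 to 29 genes passed for the 4 libraries of replicates 2 and 3, and 966 and 875 passed without WT and KO-labelled replicate 1, where the error comes from replicates 2 and 3 alone.

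Among 77 cytosolic ribosomal protein genes, the structural counterpart of these factors, 1 was lower and none higher in replicate 1, and the median of -0.10 became 0.05 with equal totals and 0.12 after quantile normalisation, so the list has no direction that holds across scalings. The member past the rule was RPS26 (chromosome 12, 56041351 to 56044697, plus strand), with values of 3395, 13515 and 11972 in WT against 3417, 10181 and 8394 in KO-labelled cells, 3.18-fold lower in replicate 1. Reads of its near-identical pseudogenes may be split with it, so its value is uncertain. RPL6 and FAU differed by -0.51 ± 0.13 and -0.43 ± 0.11. Small nucleolar RNA host genes, whose introns carry the guide RNAs of ribosomal RNA modification, had 5 of 18 members lower and none higher. SNHG4 had values of 4172, 15323 and 14629 in WT against 2360, 6240 and 5751 in KO-labelled cells, DANCR values of 2104, 6507 and 6659.6 in WT against 2116, 6127 and 5656 in KO-labelled cells and SNHG12 values of 984, 3102 and 2129 in WT against 846, 2871 and 1892 in KO-labelled cells, and SNHG17 and SNHG9 had differences of -1.11 and -1.32, with SNHG17 at -0.94 and under the rule without replicate 2 of both. SNHG12 is annotated as antisense, and its value is uncertain since no source used here states whether counting used strand. GAS5, the host gene that accumulates when translation stalls, had a difference of 0.26 ± 0.12. The list median of -0.15 was 0.01 with equal totals and 0.03 after quantile normalisation.

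Polyamines are small cations needed for growth. Of 12 members of their pathway 3 were higher, 3 lower and 6 did not pass the rule in replicate 1. The lower ones were synthetic enzymes. ODC1 (chromosome 2, 10439968 to 10448504, minus strand), the rate-limiting ornithine decarboxylase and a MYC target, had values of 7759, 35678 and 25207 in WT against 9905, 30013 and 23496 in KO-labelled cells. SRM (chromosome 1, 11054584 to 11060024, minus strand), spermidine synthase, had values of 1878, 9511 and 6907 in WT against 2368, 8398 and 5874 in KO-labelled cells. Their differences were -1.69 ± 0.17 and -1.84 ± 0.19, and AMD1, which provides the aminopropyl donor, differed by -1.13 ± 0.10. SAT1 (chromosome X, 23783173 to 23786226, plus strand), the acetyltransferase that starts breakdown, had values of 2131, 829 and 958 in WT against 2033, 750.3 and 877 in KO-labelled cells, a difference of 1.29 ± 0.11. ARG2, a mitochondrial arginase gene, had values of 1101, 239 and 277 in WT against 1929, 546 and 508 in KO-labelled cells, 3.95-fold higher, and the antizyme inhibitor gene AZIN2 differed by 1.0 ± 0.39, with 0.72 to 0.96 and under the rule without WT replicate 1 or 2, KO-labelled replicate 2 or replicate 2 of both. In each of ODC1, SRM, SAT1 and ARG2, both replicate 1 values lay outside the range of the other 4 libraries.

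Protein quality control genes of the cytosol mostly had differences below 0. All 31 proteasome subunit genes had differences below 0, 7 passed the rule and the median was -0.86, or -0.70 with equal totals and -0.68 after quantile normalisation. PSMB2 (chromosome 1, 35599544 to 35641844, minus strand), a subunit of the catalytic core, had values of 6942, 20189 and 19212 in WT against 6410.1, 14651 and 14254 in KO-labelled cells, 2.53-fold lower. PSMD1 (chromosome 2, 231056864 to 231172827, plus strand), of the regulatory particle, had values of 8709.8, 21609 and 20100 in WT against 7646, 17292 and 14498 in KO-labelled cells, a difference of -1.15 ± 0.10. PSMB6 and PSMD12 differed by -1.21 ± 0.10 and -1.11 ± 0.09, and the smallest difference of the list was -0.48 ± 0.08 for PSMA1. The number of lower members was 5 to 14 when libraries were left out, 3 with equal totals and 2 after quantile normalisation, and the median difference is itself near the 2-fold rule. Of 28 heat shock and cytosolic chaperone genes 7 were lower, none higher, and the median was -0.85. HSPE1 (chromosome 2, 197499994 to 197503457, plus strand), the mitochondrial co-chaperonin listed with them, had values of 5204, 23636 and 19604 in WT against 4634, 16769 and 13022 in KO-labelled cells, 3.63-fold lower. HSPA8 (chromosome 11, 123057489 to 123063230, minus strand), the constitutive HSP70, had values of 62679, 180160 and 138890 in WT against 36134, 132080 and 98880 in KO-labelled cells, a difference of -1.50 ± 0.15. CHORDC1 and AHSA1, partners of HSP90, differed by -1.45 ± 0.08 and -1.36 ± 0.13, and the HSP40 gene DNAJA1 by -1.32 ± 0.12. HSP90AA1 had values of 87165, 130670 and 110340 in WT against 46181, 139330 and 121390 in KO-labelled cells. It was lowest in replicate 1 of both genotypes, and the difference was -0.46 in WT and -1.49 in KO-labelled cells.

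HSPA1B, HSPA1A and DNAJB1 differed from that pattern. HSPA1B (chromosome 6, 31827735 to 31830255, plus strand), an inducible HSP70 gene, had values of 45914, 10433 and 8332 in WT against 5960.1, 9491 and 7733 in KO-labelled cells, highest in replicate 1 of WT and lowest in replicate 1 of the KO-labelled libraries. The difference was 2.30 in WT and -0.52 in KO-labelled cells. In the interaction test each replicate 1 arm is 1 library that the fit meets exactly, so the error comes from replicates 2 and 3 alone and the lone libraries are assumed to vary like those. The p-values therefore compare these 2 replicate 1 libraries and cannot tell a difference between genotypes from the spread of single libraries. The contrast of HSPA1B, KO-labelled minus WT, was -2.82 ± 0.24 (limma interaction term, Benjamini-Hochberg adjusted p 0.038, or 5.64e-07 when the replicate number was a block). DNAJB1 (chromosome 19, 14514770 to 14529770, minus strand), its HSP40 partner, had values of 12287, 6280.4 and 5712 in WT against 3094, 5594 and 5009 in KO-labelled cells and a contrast of -1.81 ± 0.17, adjusted p 0.0439 and 3.77e-05 with the block (limma). In both genes the 4 values of replicates 2 and 3 stayed close together. HSPA1A, a copy nearly identical to HSPA1B between which reads can be split, had values of 47163, 14644 and 11551 in WT against 6279, 12900 and 9489 in KO-labelled cells. The 2 copies are therefore uncertain as separate genes, and they shared the pattern. For HSPA1A the limma contrast was -2.68 (adjusted p 0.0934 unblocked, 5.66e-07 blocked). HSPH1, another inducible chaperone gene, was lower in replicate 1 of both genotypes, with values of 8094, 17059 and 15264 in WT against 4943, 12473 and 11378 in KO-labelled cells and a difference of -1.13 ± 0.09, or -0.995 and under the rule without KO-labelled replicate 1, and TCP1, a subunit of the cytosolic chaperonin, was the last of the 7 lower genes with -1.12 ± 0.09.

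**Figure D3:**
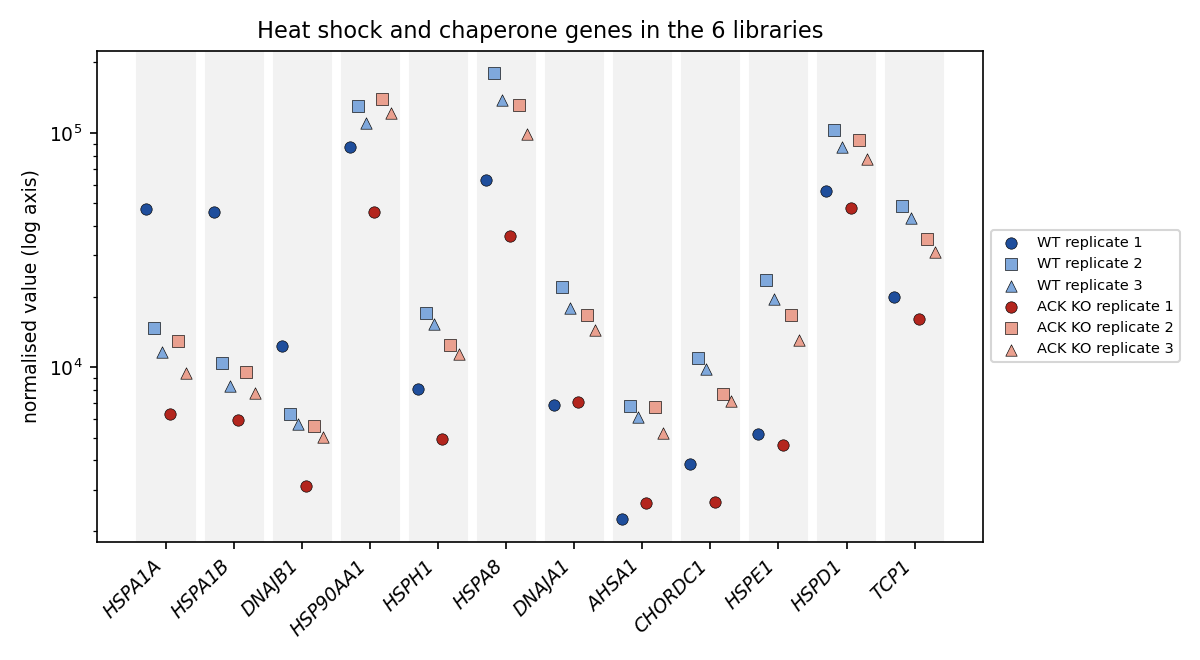
Normalised values (vertical log axis) of 12 heat shock and chaperone genes in the 6 libraries, 1 point per library. For HSPA1A, HSPA1B and DNAJB1 the WT replicate 1 point is the highest and the KO-labelled replicate 1 point the lowest of the 6, while for HSPH1, HSPA8, DNAJA1, AHSA1, CHORDC1, HSPE1, HSPD1 and TCP1 both replicate 1 points are the lowest 2.

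In all, 5 of 16658 genes (0.03%) passed the interaction test at an adjusted p of 0.05 (limma, Benjamini-Hochberg), and 499 (3%) passed with the replicate block. At an unadjusted p under 0.05 there were 1290. HECW2 (chromosome 2, 196189099 to 196593692, minus strand), a ubiquitin ligase gene, had values of 3409, 922 and 846 in WT against 2287, 2445 and 2464 in KO-labelled cells. Replicate 1 of WT was above the KO-labelled libraries, which lay close together, while the other 2 WT values were below them, and the limma contrast was -2.05 ± 0.17 (adjusted p 0.035 unblocked, 1.46e-04 blocked). ARPIN-AP3S2 (chromosome 15, 89834308 to 89912882, minus strand), a locus of read-through transcripts that overlaps both named genes, had values of 0, 241 and 257 in WT against 86.9, 409.7 and 374 in KO-labelled cells and a contrast of 5.80 ± 0.43, adjusted p 0.0299 and 3.58e-04 with the block (limma). It was listed at 0 in replicate 1 of WT, so the size depends on the pseudocount, and reads can be shared with the overlapping genes. The fifth, ENSG00000270149 on chromosome 1, 160997957 to 161038962, minus strand, has no symbol in the name table and is given because it completes the count. It had values of 0, 90.4 and 97.7 in WT against 99.1, 0 and 0 in the KO-labelled libraries and a contrast of 13.21 ± 0.85, adjusted p 0.0218 (limma). It changed between listed at 0 and present in both genotypes, in opposite directions. Without any 1 of the 4 libraries of replicates 2 and 3, the unblocked test called 0 genes.

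Of 23 glycolytic genes 9 were lower in replicate 1 and 1 higher, with a median of -0.33, and 4 and 3 were lower with equal totals and after quantile normalisation. LDHA (chromosome 11, 18394388 to 18408425, plus strand), which turns pyruvate into lactate, had values of 19346, 71603 and 67627 in WT against 17696, 51889 and 39786 in KO-labelled cells, 3.04-fold lower. ENO1 (chromosome 1, 8861000 to 8879250, minus strand), enolase, had values of 34448, 95545 and 87748 in WT against 37903, 87096 and 70782 in KO-labelled cells, a difference of -1.23 ± 0.12. GAPDH, often used as a reference gene, had values of 43155, 103090 and 94275 in WT against 34670, 74533 and 65475 in KO-labelled cells, a difference of -1.1 ± 0.10. All 6 values of these genes split by number, with both replicate 1 libraries lowest. PKM and HK2 differed by -1.32 ± 0.12 and -1.21 ± 0.13, ALDOA, PGAM1, TPI1 and PGK1 by -1.14, -1.13, -1.11 and -1.06, and the neuronal enolase gene ENO2 by 1.09 ± 0.15 in the other direction. PGAM1 and PGK1 were under the rule without WT replicate 1, at -0.90 and -0.88, and PGK1, TPI1 and ENO2 without replicate 2 of both, at -0.98, -0.97 and 0.97. The glucose carrier genes SLC2A1 and SLC2A3 had differences of -0.22 ± 0.11 and -0.21 ± 0.09. Many of these enzymes are also targets of the hypoxia factor HIF. In the hypoxia list 4 of 20 were higher and 2 lower, with a median of 0.38, and none was lower without WT replicate 1. VEGFA (chromosome 6, 43770184 to 43786487, plus strand), the vascular growth factor and also a target of ATF4, had values of 18277, 4182 and 4116 in WT against 12515, 4159 and 4605 in KO-labelled cells, 3.55-fold higher in replicate 1. ADM and EPAS1 differed by 1.65 ± 0.54 and 1.33 ± 0.14, and ADM was at 1.02 without WT replicate 1 and 2.28 without the KO-labelled one. NDRG1 differed by 1.02 ± 0.42 and was under the rule without WT replicate 3 (0.86), KO-labelled replicate 2 (0.70) or replicate 2 of both (0.83). EGLN3, the HIF hydroxylase that HIF induces, had values of 78.3, 319.7 and 342 in WT against 228, 409.9 and 368 in KO-labelled cells, a difference of -1.41 ± 0.27 that was -0.76 without WT replicate 1, and ANKRD37 differed by -1.08 ± 0.31, or -0.60, -0.93 and -0.94, under the rule, without WT replicate 1, WT replicate 2 and replicate 2 of both.

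Respiratory chain subunits encoded in the nucleus had 38 of 39 differences below 0 but 1 past the rule, UQCRQ with -1.14 ± 0.10, and a median of -0.50. Mitochondrially encoded transcripts had a median of -0.29, with 1 of 13 lower, MT-ND6, and the most abundant, MT-CO1, had values of 591110, 837940 and 753870 in WT against 707510, 805880 and 667710 in KO-labelled cells. Fatty acid synthesis had FASN (chromosome 17, 82078333 to 82098332, minus strand), the fatty acid synthase, lower with values of 17824, 41354 and 39424 in WT against 17213, 38327 and 37912 in KO-labelled cells and ACSL1, a long-chain acyl-CoA synthetase gene, higher with values of 2797, 754 and 851 in WT against 2723, 684 and 707 in KO-labelled cells, 3.69-fold. In both, the groups did not overlap, and 11 of 13 members were within the rule. None of 24 sterol genes passed the rule in either direction. DHCR7, an enzyme of the last steps of cholesterol synthesis, differed by -0.98 ± 0.11. In the oxidative stress list NQO1 and PRDX1 were lower, with values of 1065, 3532 and 4047 in WT against 848, 2074 and 2490.1 in KO-labelled cells for the quinone reductase NQO1 and 8485, 29259 and 27412 in WT against 8640.4, 23309 and 21332 in KO-labelled cells for the peroxidase PRDX1. They differed by -1.62 ± 0.13 and -1.55 ± 0.10, SLC7A11 was the only 1 higher, and the regulator NFE2L2 differed by 0.02 ± 0.08. MT1X and MT2A, metallothionein genes induced by zinc, had values of 24.4, 137 and 93.8 in WT against 17.7, 47.8 and 55.9 in KO-labelled cells and 24, 95.3 and 95.2 in WT against 26.5, 39.7 and 67.7 in KO-labelled cells and differed by -1.83 ± 0.31 and -1.45 ± 0.35, with MT2A at -0.94 and under the rule without WT replicate 1.

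**Figure D4:**
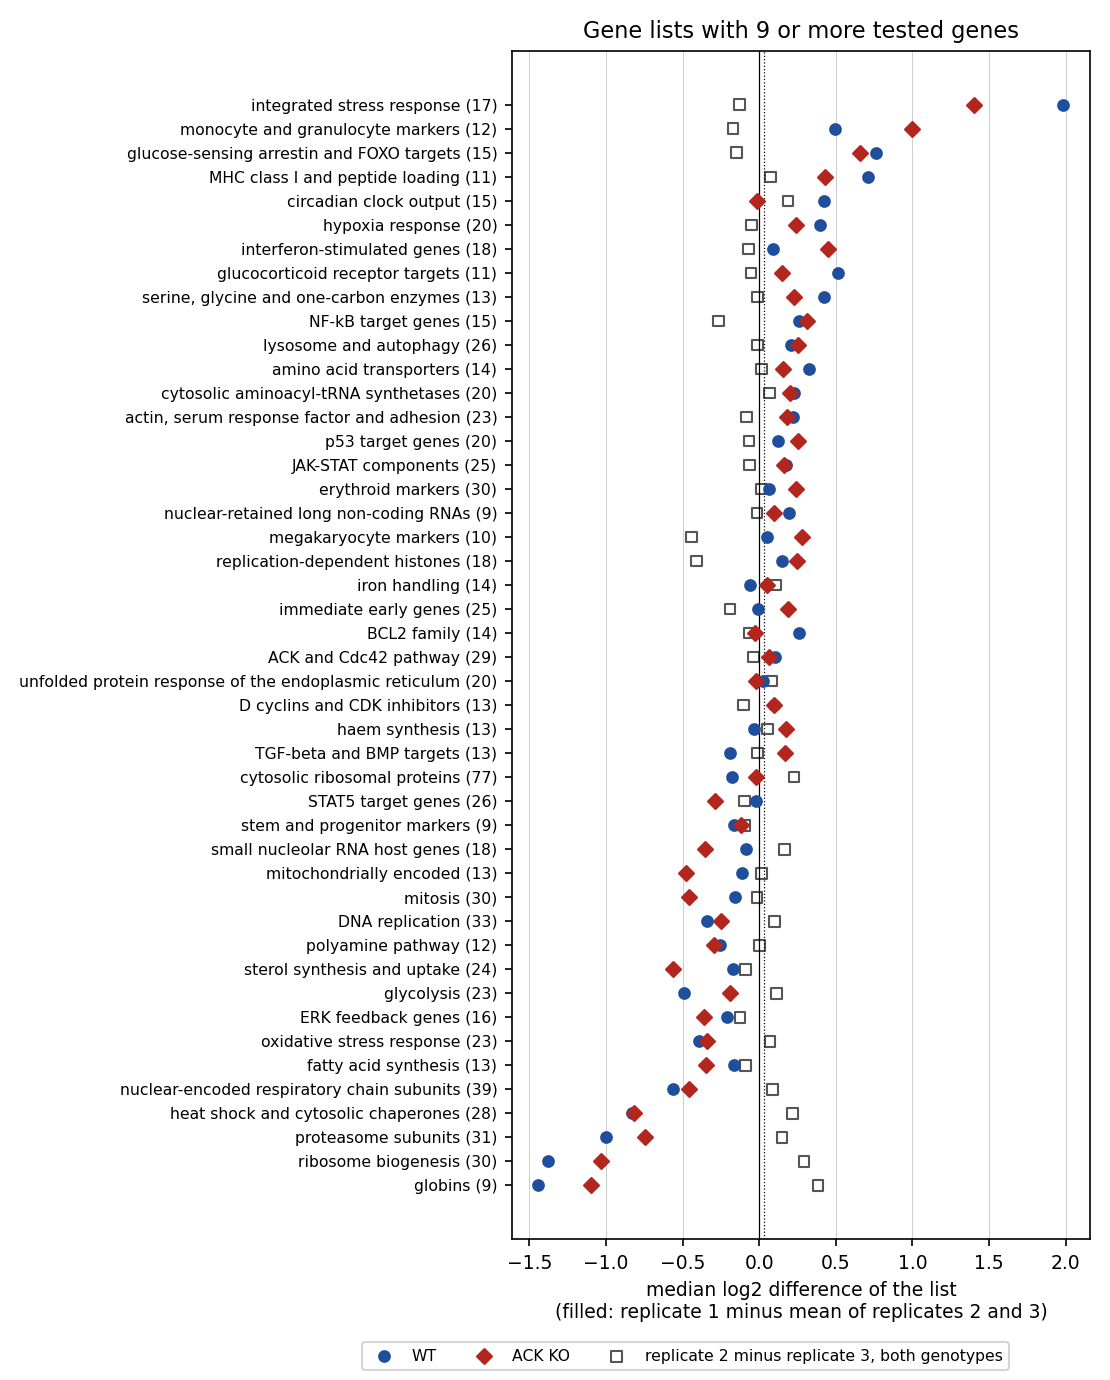
Median log2 difference of each gene list with 9 or more tested genes (number in brackets), replicate 1 minus the mean of replicates 2 and 3 in WT (circles) and in the KO-labelled libraries (diamonds), and replicate 2 minus replicate 3 over both genotypes (open squares). The dotted line is the median of all genes, 0.03. Integrated stress response genes lie farthest to the right and globins and ribosome biogenesis genes farthest to the left, and the replicate 2 minus 3 squares of those last 2 lists lie to the right of 0.

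Globins were lower in replicate 1, with 6 of 9 tested genes past the rule, none higher and a median of -1.24. In bulk RNA a smaller number of haemoglobin-making cells and less globin RNA per cell cannot be told apart. The embryonic alpha-like globin gene HBZ (chromosome 16, 152687 to 154503, plus strand) had values of 597, 7345 and 4599 in WT against 1892, 6286 and 4916 in KO-labelled cells, 5.34-fold lower. Its difference was -1.55 without WT replicate 1 but -3.28 without KO-labelled replicate 1. The near-identical alpha globin genes HBA1 and HBA2 had values of 2348, 14462 and 9195 in WT against 3279, 9876 and 6959 in KO-labelled cells and of 199, 1813 and 965 in WT against 197, 971 and 677 in KO-labelled cells. They differed by -1.82 ± 0.25 and -2.38 ± 0.27, and each is uncertain alone, as copies this alike can share reads. The fetal pair HBG1 and HBG2, also near-identical, had values of 5956, 18026 and 14541 in WT against 6944, 17266 and 16795 in KO-labelled cells and 13594, 38677 and 32185 in WT against 16635, 33984 and 37161 in KO-labelled cells, 2.58-fold and 2.35-fold lower. HBE1, the embryonic beta-like gene, did not follow. It had values of 1386, 1031 and 1527 in WT against 9391, 10443 and 17322 in KO-labelled cells, with overlapping replicates and a difference of -0.19 ± 0.24. HBB, the adult gene, was near the floor at 6.70, 26.7 and 26.7 in WT against 9.97, 3.36 and 31.2 in KO-labelled cells. The rest of the erythroid programme did not go with the globins. Of 30 erythroid markers 1 was higher, TSPAN33 with 1.51 ± 0.49, or 0.68 and under the rule without KO-labelled replicate 1 and 2.34 without the WT one, and none lower, with a median of 0.17. TAL1, an erythroid transcription factor gene, differed by 0.01 ± 0.10 and the blood group gene KEL by 0.55 ± 0.14. No haem synthesis gene of 13 and no iron gene of 14 passed the rule. ALAD, the second enzyme of haem synthesis, differed by 0.50 ± 0.10, and the transferrin receptor gene TFRC had values of 21311, 46624 and 48662 in WT against 19427, 27422 and 31014 in KO-labelled cells, lowest in replicate 1 of both genotypes with a difference of -0.87 ± 0.13.

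Genes of monocytes and granulocytes, fates that K562 cells largely lack, had, with the deposited scaling, a list median in replicate 1 of 0.76, with 5 of 12 tested members higher and none lower. After quantile normalisation the median was 0.36 with 5 higher and 1 lower, and without KO-labelled replicate 1 it was 0.50 with 4 higher and 1 lower. AZU1 (chromosome 19, 825097 to 832018, plus strand), a granule protein gene, had values of 300.4, 43.6 and 43.4 in WT against 197, 31.7 and 45 in KO-labelled cells, 5.88-fold higher. ITGAM (chromosome 16, 31259967 to 31332892, plus strand), the integrin CD11b, had values of 3712, 1352 and 1088 in WT against 1690.1, 426 and 194 in KO-labelled cells, a difference of 2.08 ± 0.31. SPI1 (chromosome 11, 47354860 to 47378576, minus strand), the myeloid master factor PU.1, had values of 1106, 648 and 777 in WT against 633, 187 and 179 in KO-labelled cells, and its difference of 1.21 ± 0.24 was 0.64 without KO-labelled replicate 1. FCGR2A, an Fc receptor gene, had values of 7581, 2958 and 3219.6 in WT against 1262, 561.9 and 805 in KO-labelled cells, a difference of 1.1 ± 0.15 that was 0.91 without WT replicate 1 and 0.94 without replicate 2 of both, and the fifth was CEBPB, which is also an integrated stress response member. Summed over the 12 genes the values were 18099, 9454 and 9405 in WT and 10165, 5277 and 5012 in the KO-labelled libraries, so replicate 1 was the highest in each genotype. The defining genes MPO, ELANE, S100A8 and S100A9 were not analysed here. LYZ and CD33 had differences of 0.08 ± 0.18 and 0.09 ± 0.12. The part of other cells in these values was not tested.

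Markers of other cell types did not share one direction. Of 5 lymphoid markers 2 were lower in replicate 1, the T cell receptor chain genes CD3G with values of 322, 1216 and 1577 in WT against 612, 1234 and 1841 in KO-labelled cells and CD3D with values of 399.6, 1121 and 1679 in WT against 909, 1107 and 1708 in KO-labelled cells. CD3D was under the rule without WT replicate 1 (-0.60), WT replicate 3 (-0.98) or replicate 3 of both (-0.88). The sums over the lymphoid list were 830, 2445 and 3391 in WT and 1620, 2424 and 3636 in the KO-labelled libraries. CD2, CD4, CD8A and PAX5 were not analysed here. Of 7 epithelial markers 2 were higher, ELF3 and CLDN7 at low levels, of which ELF3 was under the rule without replicate 2 of both (0.90) and CLDN7 without KO-labelled replicate 1 (0.91), while the abundant KRT18 had values of 5787, 10881 and 9388 in WT against 7718, 11413 and 10971 in KO-labelled cells, a difference of -0.67 ± 0.09. Of 3 fibroblast and endothelial markers none passed, and VIM differed by -0.11 ± 0.08. Stem and progenitor markers had none of 9 past the rule, with 0.43 ± 0.24 for KIT and -0.46 ± 0.10 for GATA2. Megakaryocyte markers had 1 of 10 higher, RAB27B with values of 922, 286 and 235 in WT against 20.7, 2.07 and 16.5 in KO-labelled cells. For lists that follow RNA handling, the 18 replication-dependent histone genes, which lack a poly(A) tail, had a median of 0.11, which was 0.41 over the 12 genes left by a filter at 50, -0.05 after quantile normalisation and -0.11 without replicate 2 of both, and none past the rule, and the 9 nuclear-retained RNAs had a median of 0.15 and none past the rule. MALAT1 had values of 174000, 130460 and 117540 in WT against 172870, 152280 and 131360 in KO-labelled cells.

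STAT5 targets, the set for which the series was made, split between directions in replicate 1. Of 26 members 3 were higher, 4 lower and 19 within the rule, and the median of -0.11 became 0.04 with equal totals. BCL6 (chromosome 3, 187721377 to 187745727, minus strand), a repressor that STAT5 holds down in many cells and that FOXO factors induce, had values of 1165, 135 and 146 in WT against 458, 108 and 124 in KO-labelled cells, 5.7-fold higher. GFI1 and CDKN1A differed by 1.08 ± 0.32 and 1.02 ± 0.26, and both were under the rule on leaving out WT replicate 2, KO-labelled replicate 1 or 2 and without replicate 2 of both genotypes, at 0.69 to 0.99 for GFI1 and 0.71 to 0.995 for CDKN1A. ID1 (chromosome 20, 31605283 to 31606515, plus strand) had values of 166, 538 and 508 in WT against 266, 897 and 865 in KO-labelled cells, 3.22-fold lower, and SOCS3, a feedback inhibitor of cytokine receptors, differed by -1.05 ± 0.27, or -0.47, -0.89 and -0.81, under the rule, without KO-labelled replicate 1, KO-labelled replicate 2 and replicate 2 of both, and -1.64 without WT replicate 1. LIF differed by -1.20 ± 0.23, or -0.95 without WT replicate 1, and CCND1 by -1.03 ± 0.20, or -0.89, -0.83 and -0.82 without KO-labelled replicate 1, KO-labelled replicate 3 and replicate 3 of both. PIM1, a kinase gene under direct STAT5 control, had values of 69788, 26467 and 26886 in WT against 22549, 16402 and 14113 in KO-labelled cells. Replicate 1 was highest in each genotype, with a difference of 0.98 ± 0.16 just under the rule. CISH, a sensitive STAT5 target, had values of 7157, 5045 and 4349.6 in WT against 4474, 6069 and 4977 in KO-labelled cells and moved in opposite directions in the genotypes, with a difference of 0.16 ± 0.19. SOCS2 and PIM2 differed by 0.03 ± 0.13 and -0.29 ± 0.11. Among 25 pathway components 3 were higher and none lower, the receptor genes CSF3R, with values of 298, 41.5 and 29.9 in WT against 442, 113 and 82.1 in KO-labelled cells, and IL6R, and the kinase gene JAK3. The count of higher components was 2 with a pseudocount of 5 and 1 of 22 with a filter at 50, so it rests in part on low values. STAT5A and STAT5B differed by -0.24 ± 0.08 and 0.66 ± 0.14 and JAK2 by 0.70 ± 0.12. In the ACK and Cdc42 list of 29 genes the receptor kinase gene MERTK, an upstream partner of ACK, was the only 1 past the rule, with values of 187, 66.3 and 101 in WT against 289.7, 129.7 and 130.1 in KO-labelled cells. AXL differed by 0.24 ± 0.13 and CDC42 by -0.57 ± 0.08.

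FOXO factors are active when growth factor signalling is low, and some of their targets were higher beside BCL6. CCNG2 (chromosome 4, 77157151 to 77433388, plus strand) had values of 824, 86.8 and 200.1 in WT against 685, 222 and 348 in KO-labelled cells, a difference of 1.97 ± 0.39 that was 1.30 without WT replicate 1. PIK3IP1, an inhibitor of PI3 kinase, and SESN3 differed by 1.81 ± 0.34 and 1.1 ± 0.34, and SESN3 was under the rule without WT replicate 1 (0.66), WT replicate 2 (0.92) or replicate 2 of both (0.89). TXNIP and ARRDC4, arrestin genes induced by glucose through MondoA and also grouped in that list, were lower. They had values of 6262, 9754 and 11319 in WT against 4342, 10414 and 10390 in KO-labelled cells and 315, 520.2 and 740.2 in WT against 449.8, 1012 and 1211 in KO-labelled cells and differed by -1.0 ± 0.12 and -1.14 ± 0.17, each under the rule without KO-labelled replicate 1, at -0.75 and -0.98. TXNIP was also under it, at -0.95 to -0.99, without WT replicate 3, KO-labelled replicate 2 or 3 or replicate 3 of both, and ARRDC4 at -0.95 without replicate 3 of both. In all 4 of 15 were higher and 2 lower, with a median of 0.70, and with equal totals 7 were higher and none lower. RRAGD, a GTPase of amino acid sensing at the lysosome, had values of 1250.4, 306 and 345 in WT against 424, 70.1 and 61.5 in KO-labelled cells, 4.95-fold higher, and WIPI1, an autophagy gene, differed by 1.27 ± 0.18, the 2 members past the rule of 26 lysosome and autophagy genes. Of 20 p53 targets 5 were higher and none lower, beside 10.6% and 4.18% of all genes, and without WT replicate 3, KO-labelled replicate 3 or replicate 3 of both 1 was lower. The 5 were TP53INP1 with values of 1129, 174 and 272 in WT against 1365, 253 and 492 in KO-labelled cells, BBC3, the gene of the death factor PUMA, with values of 1578, 363 and 459 in WT against 1553, 535 and 601 in KO-labelled cells, and GDF15, DDB2 and CDKN1A, with DDB2 at 0.97 and under the rule without WT replicate 1. MDM2 and BAX differed by -0.35 ± 0.08 and -0.61 ± 0.12. K562 cells are known to lack functional p53, and GDF15 is also a member of the stress response list. JUN (chromosome 1, 58780788 to 58784327, minus strand) led the immediate early genes with values of 3582, 615 and 530.4 in WT against 4562, 1392 and 1734 in KO-labelled cells, 4.29-fold higher, FOSL1 was lower with -1.35 ± 0.21, and FOS and EGR1 differed by 0.60 ± 0.62 and -0.55 ± 0.57.

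Cell cycle genes stayed within the rule with few exceptions. None of 33 DNA replication genes passed it, with a median of -0.31, and CDT1, a licensing factor gene, had the highest difference at 0.91 ± 0.12. In the mitosis list CCNB1, the cyclin B1 gene, was the 1 lower of 30, with values of 6389.7, 12299 and 11519 in WT against 3159, 7308 and 6421 in KO-labelled cells, a difference of -1.01 ± 0.09 and, under the rule, -0.90, -0.95 and -0.94 without KO-labelled replicate 1, KO-labelled replicate 2 and replicate 2 of both. CDKN1C, a CDK inhibitor gene, was higher, with values of 889.6, 287 and 318 in WT against 934, 479 and 677 in KO-labelled cells, and was under the rule without WT replicate 1 (0.71) or replicate 2 of both (0.97).

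Among higher genes with a replicate 1 mean of at least 100, KLHDC7B (chromosome 22, 50545891 to 50551023, plus strand) had values of 451, 7.19 and 8.0 in WT against 562.3, 28.1 and 31.7 in KO-labelled cells, 31-fold higher in replicate 1, and 4.19 and 5.72 on the log2 scale without WT and KO-labelled replicate 1. HNF4A, a liver and gut transcription factor gene (chromosome 20, 44355700 to 44434596, plus strand), had values of 172, 6.56 and 14.3 in WT against 369, 22.7 and 11.7 in KO-labelled cells, 18.5-fold higher. P2RX7, an ATP-gated channel gene, had values of 296, 26.3 and 19.6 in WT against 296, 17.4 and 31.6 in KO-labelled cells, 12.3-fold higher. In these 3 genes both replicate 1 values lay far above all 4 others. ASS1 (chromosome 9, 130444929 to 130501274, plus strand), argininosuccinate synthase, which makes the precursor of arginine, was the most abundant of the 15, with values of 2227, 119 and 71.3 in WT against 1703, 271 and 272 in KO-labelled cells, 12.2-fold higher and 2.64 and 4.58 on the log2 scale without WT and KO-labelled replicate 1. ZBTB20 had values of 356, 4.85 and 3.52 in WT against 216, 92.9 and 10.2 in KO-labelled cells, and its size rested on single libraries, from 2.74 without WT replicate 1 to 6.12 without KO-labelled replicate 1. MEGF6, MYH15, SCN4A, TM6SF1 and RASGRP3 differed by 4.39 ± 0.42, 3.78 ± 0.48, 3.75 ± 0.47, 3.67 ± 0.37 and 3.59 ± 0.42. Without WT replicate 1 SCN4A and RASGRP3 were at 2.91 and 2.92, and without the KO-labelled one at 4.58 and 4.27. Among the others were C1QTNF3-AMACR, a read-through locus that overlaps other genes, the pseudogene USP32P1 and the related CCDC144A, and IGFL2-AS1, an antisense RNA, all uncertain because reads can be shared. CCDC144A was at 2.97 and 4.21 without replicate 2 and replicate 3 of both genotypes. C1QTNF3-AMACR had values of 165, 29 and 0 in WT against 74.9, 52.7 and 0 in KO-labelled cells, and its difference of 4.15 ± 1.64 ranged from 1.48 without replicate 3 to 6.81 without replicate 2 of both genotypes.

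The largest lower genes after ARPIN-AP3S2, which differed by -5.06 ± 1.01, or -2.16 without WT replicate 1 and -7.96 without the KO-labelled one, were NEFH (chromosome 22, 29480230 to 29491390, plus strand), the heavy neurofilament gene, with values of 317, 4182 and 2801 in WT against 448, 2357 and 2317 in KO-labelled cells, 7.49-fold lower, and PALM3, with values of 12.3, 124 and 142 in WT against 50.6, 199.6 and 255 in KO-labelled cells, 6.65-fold lower and -2.14 without WT replicate 1. Both replicate 1 values of each were below all 4 others. VGF, a neurosecretory peptide gene, had values of 41.4, 205 and 244 in WT against 113, 404 and 452 in KO-labelled cells and KCNH4, a potassium channel gene, values of 59.4, 453 and 356 in WT against 113, 391 and 370.2 in KO-labelled cells. CTXN1, CYB5D1, TUBA4A and FDXACB1 differed by -2.14 ± 0.27, -1.98 ± 0.30, -1.96 ± 0.34 and -1.95 ± 0.20, and without WT replicate 1 the first 3 were -1.53, -1.33 and -1.19. POP1, a subunit of the RNase P and MRP particles that process tRNA and ribosomal RNA, had values of 430.0, 2698 and 2184 in WT against 554, 1734 and 1430.1 in KO-labelled cells, 4.0-fold lower. USP2-AS1, an antisense RNA with -2.24 ± 0.31, is uncertain. HBZ, HBA2, POLR1G and UTP20 complete the 15.

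Direction went with the level of a gene. The genes were put in 5 groups of equal size by their mean over the 6 libraries. In the group with the lowest means 725 of 3332 were higher and 143 lower, and in that with the highest means 49 were higher and 181 lower. The medians of the groups, from lowest to highest, were 0.37, 0.36, 0.05, -0.12 and -0.21. Among genes with a mean of 1000 or more, 161 were higher and 353 lower of 7521. Of 3651 genes annotated as other than protein-coding 551 (15.1%) were higher, and of 12757 protein-coding genes 1170 (9.17%), while 4.16% and 4.19% were lower. By gene span the lower genes numbered 250 of the 3282 shortest and 53 of the 3282 longest genes. Chromosome medians ran from -0.09 on chromosome 16 to 0.13 on chromosome 15 among the autosomes.

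**Figure D5:**
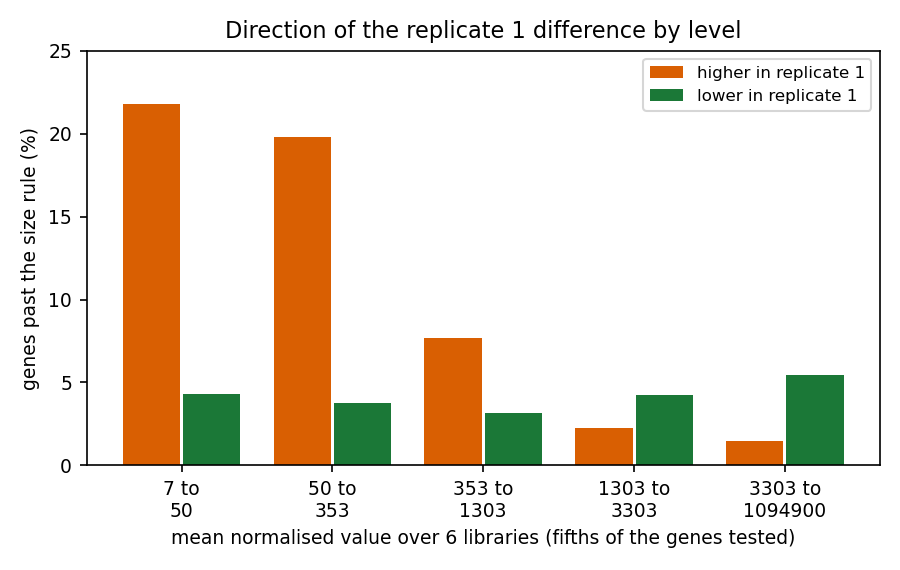
Percentage of genes past the size rule (vertical axis) that were higher (orange) or lower (green) in replicate 1, in 5 equal groups of the genes tested by mean normalised value over the 6 libraries (horizontal axis, range of each group). Higher genes fall from 21.8% in the lowest group to 1.47% in the highest, while lower genes stay between 3.18% and 5.43%.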

How the data were processed

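Polyadenylated RNA of 3 WT and 3 KO-labelled K562 libraries was prepared with a stranded mRNA kit and adapters carrying unique molecular identifiers, per the labels' protocols. The deposited signal is a gene-level normalised count for 19498 genes, which the authors made before deposit. The submitters' processing notes name GRCh38, R 3.6.1, DESeq2 1.26.0, STAR 2.7.2b, Salmon 1.1.0, SAMtools and FastQC 0.11.7, without saying which did what. No source used here gives the annotation release, the use of strand in counting or the handling of molecular identifiers. Raw read counts cannot be had from these values, since 18.1% to 36.3% of the values under 20 in a library lay within 2% of a common step. Depth is therefore unknown, and no count model was fitted and no interval for counting error is given.

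Gene symbols were matched for 19392 genes and GENCODE 29 positions for 19112. Values were taken as log2(value + 1), a scale that understates the change of low genes, and genes with at least 10 in 3 or more libraries were kept. The replicate 1 difference, its genotype interaction and the contrast of replicates 2 and 3 were fitted with limma 3.58.1 (R 4.3.3) over all 6 libraries with an intensity trend, and p-values were two-sided and adjusted by Benjamini-Hochberg over all 16658 genes. The procedure was tested on simulated data. No test is given for the replicate 1 difference, because the split was chosen from these values. Lists are described by counts and medians. The members and lists were chosen with earlier results of these data known.

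Genes were named by rule. The rule took TNK2, the 15 largest differences in each direction with a mean of at least 100 in the higher set, up to 4 members of each list, up to 8 interaction genes and up to 4 genes in each direction between replicates 2 and 3. Further list members and identity genes were picked with their values in view. Some genes that the rule or the lists hold are not reported here. Deviations of same-numbered libraries from the mean of their genotype correlated across genes at 0.70, 0.52 and 0.34 (Pearson) for numbers 1, 2 and 3. WT replicate 2 with KO-labelled replicate 3 had 0.28 and WT replicate 3 with KO-labelled replicate 2 had 0.26. Pairs of number 1 with number 2 or 3 had -0.59 to -0.42. With replicate 1 apart in both genotypes, numbers 2 and 3 deviate the same way whatever the pairing, which raises same-numbered and crossed pairs alike. Same-numbered pairs of numbers 2 and 3 were above the crossed ones. Libraries of the same number thus shared part of their deviation across the genotypes. What this sharing stands for was not tested, and the replicate block assumes pairing. Nothing in the labels says what a number stands for, or that replicates came from separate cultures, so the p-values reflect the spread between libraries alone, which may be technical. Alternatives were another pseudocount, other filters on low values, 3 other scalings, other fold thresholds, no genotype covariate, no trend, the replicate block, and leaving out each library and each of replicates 2 and 3.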

Additional observations from a re-analysis of the deposited data

Results flagged for a closer look

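In 5 genes the replicate 1 difference was unequal in the 2 genotypes by the interaction test (limma, Benjamini-Hochberg adjusted p under 0.05), given as KO-labelled minus WT on the log2 scale. Replicate 1 is 1 library in each genotype and adds no spread, so the test sets these 2 libraries apart and not the genotypes. HSPA1B, the inducible HSP70 gene, had a contrast of -2.82 and its HSP40 partner gene DNAJB1 one of -1.81, each with replicate 1 the highest library of WT and the lowest of the KO-labelled cells. HECW2 had a contrast of -2.05, with replicate 1 above the others in WT only. The read-through locus ARPIN-AP3S2 had a contrast of 5.80, and ENSG00000270149 one of 13.21. Both include libraries listed at 0, so their sizes depend on the pseudocount. The call of each of the 5 was lost when any 1 library of replicates 2 and 3 was left out of the fit without the block.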

How the results depend on the processing

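The 1765 higher genes became 964 with a filter at 50, 1109 after quantile normalisation, 3346 at 1.5-fold and 651 at 3-fold. The 696 lower genes became 442 with equal totals, 2249 at 1.5-fold and 119 at 3-fold, and leaving out libraries gave 606 to 1125, the latter without KO-labelled replicate 1. The share of higher genes was 63.2% with the filter at 50. The 5 interaction genes became 1 with no filter, 8 after quantile normalisation, 3 without the intensity trend, 499 with the replicate block and 0 without any 1 library of replicates 2 and 3. The test could not be fitted without a replicate 1 library. Genes differing between replicates 2 and 3 numbered 0, and 4 to 966 with 1 library left out. The stress response median of 1.81 was 1.96 with equal totals and 1.40 to 1.99 with libraries left out. Globins were at -1.42 after quantile normalisation and -1.09 to -1.44 with libraries left out. Proteasome genes were at -0.70 with equal totals, -0.68 after quantile normalisation and -0.744 to -0.998 with libraries left out, and chaperones at -0.70 and -0.63 in those scalings. Glycolysis was at -0.17 with equal totals and -0.19 to -0.49 with libraries left out. Ribosomal proteins were at 0.049 and 0.117 in the 2 scalings, and monocyte and granulocyte markers at 0.36 after quantile normalisation. STAT5 targets were at 0.041 with equal totals, reversed from -0.11, and at -0.287 to -0.020 with libraries left out, the former without WT replicate 1. The cause of these shifts was not tested. Of the other values for whole comparisons and lists, 143 stayed within the limits set for them. No gene counted in one direction was counted in the other under any alternative. Unknown depth limits statements on low values.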

Other observations

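Immune genes outside the lists described above were mixed in replicate 1. Of 15 NF-kB targets 5 were higher and none lower, with a median of 0.24 that was -0.22 after quantile normalisation. Of 11 genes of MHC class I and peptide loading 3 were higher and 1, PSMB10, lower. In that list 0 were higher without KO-labelled replicate 2 and 1 after quantile normalisation. PSMB10 was at -0.95 and under the rule without WT replicate 1 or without replicate 2 of both. Of 18 interferon-stimulated genes 2 were higher, beside 10.6% of all genes, and 0 were with a pseudocount of 5, a filter at 50, the trimmed mean of M values or quantile normalisation, which took the median from 0.38 to -0.04. DUSP1, a phosphatase gene induced by stress and glucocorticoids, had values of 1296, 372 and 381 in WT against 348, 222 and 257 in KO-labelled cells, a difference of 1.16 ± 0.25 that was 0.54 and under the rule without WT replicate 1. TSC22D3, another glucocorticoid target, had values of 1406, 239 and 299.9 in WT against 1136, 273 and 482 in KO-labelled cells and differed by 2.02 ± 0.25. Of 11 such targets 3 were higher and 1, MT2A, was lower, as given above. KLF9, also among the higher ones, differed by 1.02. It was under the rule without WT replicate 1 (0.93), WT replicate 3 (0.995) or replicate 3 of both (0.98). Without WT replicate 1, 1 of the 11 was higher.

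Among 14 BCL2 family genes, which set the threshold for cell death, 3 were higher, beside 10.6% of all genes, and none lower. They were BBC3, HRK and BMF. BBC3 differed by 1.70 ± 0.16 and BMF by 1.51 ± 0.26. Among 15 circadian output genes 2 were higher, NR1D2 and DBP, with values of 1874, 550.4 and 456 in WT against 1482, 758 and 583 in KO-labelled cells and 195, 99 and 90.4 in WT against 131, 51.4 and 52.2 in KO-labelled cells. Of 13 TGF-beta and BMP targets 2 were higher, ID3 and SMAD6, and 2 lower, ID1 and BAMBI. SMAD6 was at 0.98, under the rule, without WT replicate 1. ID3 differed by 1.27 ± 0.22 and BAMBI by -1.33 ± 0.11. Of 16 ERK feedback genes 2 were higher and 2 lower, of 13 D cyclins and CDK inhibitors 2 and 1, and of 23 actin and adhesion genes 1, FHL2, was higher, though under the rule, at 0.33 to 0.995, without KO-labelled replicate 1, 2 or 3 or replicate 2 of both genotypes. None of 3 cold-inducible RNA-binding protein genes passed the rule.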
